A study of Mus musculus with 12 samples.

Results

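The proteasome genes of Ly6G-selected mouse bone marrow neutrophils are described here across 4 groups that cross Rab27a genotype with CpG-B treatment. Genes were taken by symbol (Psma, Psmb, Psmc, Psmd, Psme, Psmf or Psmg followed by a number), and 48 symbols matched. A gene was kept when at least 3 of the 12 libraries held 10 or more counts, which left 47 of the 15986 genes counted. Psma8, the testis form of an alpha subunit, had at most 2 counts in any library and was left out. Of the 47, 5 encode the immune catalytic subunits (Psmb8, Psmb9, Psmb10) and the PA28 activator (Psme1, Psme2), and the other 42 encode the remaining core, cap, activator, inhibitor and assembly proteins.

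The cells came from bone marrow of C57BL/6 mice, either wild-type or Rab27aKO (lacking Rab27a, a GTPase that docks secretory organelles at the plasma membrane), and were sorted by beads against Ly6G, a surface protein of neutrophils. Each genotype was sampled without stimulation and with 5 µM CpG-B (ODN 1826, an unmethylated oligonucleotide ligand of TLR9). All 12 samples, the unstimulated ones included, spent 6 h in culture medium at 37C, so no group shows freshly isolated cells. The unstimulated samples are called vehicle in 1 place and untreated in another. Each group had 3 libraries numbered 1 to 3. The knockout allele, the sex and age of the mice and whether a number stands for 1 mouse were not stated in the labels. The p-values below therefore reflect only how these samples scatter, which may be technical.

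The 26S proteasome degrades proteins marked with ubiquitin. Its 20S core is a barrel of alpha and beta rings in which only the β1, β2 and β5 subunits cut peptide bonds, and its 19S cap binds, unfolds and feeds in substrates. In cells exposed to interferon the catalytic subunits Psmb6 (β1), Psmb7 (β2) and Psmb5 (β5) can be replaced by Psmb9 (β1i), Psmb10 (β2i) and Psmb8 (β5i), giving the immunoproteasome, whose products favour loading on MHC class I. The ring-shaped activator PA28, made of Psme1 (PA28α) and Psme2 (PA28β), is induced by the same signals.

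Library totals ran from 10928813 to 15513279 estimated counts. Levels of 1 gene across libraries are given as CPM, counts scaled to each library's size after adjustment by its TMM factor. Levels of different genes are compared as TPM, which allow for transcript length. Genes that rose, fell or were called had a Benjamini-Hochberg adjusted p of at most 0.05 in the quasi-likelihood test of edgeR over the 10802 genes tested, and all 47 members were among them. Rab27a was lower in the knockout, at 94.9 to 129 CPM in the 6 knockout libraries against 207 to 335 CPM in the 6 wild-type libraries (log2 -1.26 unstimulated and -1.14 with CpG). The 12 neutrophil markers were all detected and summed to 74180 to 116000 CPM. Erythroid markers summed to 337 and 400 CPM in the knockout libraries numbered 1 and to 1446 and 1312 CPM in those numbered 2. Those numbered 3 held 4705 and 4804 CPM, against 3299 to 4396 CPM in the wild-type. B cell markers ran the same way, from 6.61 and 7.5 to 92.5 and 104 CPM, and no marker found in the files was at 0 in all libraries (1 of 8 B cell and 1 of 10 T and NK cell markers listed were not found). Monocyte and macrophage markers summed to 778 to 801 CPM in unstimulated and 1261 to 1329 CPM in CpG-treated wild-type libraries, and to 578 to 648 and 1355 to 1693 CPM in the knockout. Without Csf1r the wild-type sums were 580 to 599 CPM unstimulated and 679 to 799 CPM with CpG. The knockout sums were then 414 to 464 and 563 to 777 CPM. The part of these markers in the results was not tested.

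Proteasome genes spanned a wide range of levels. Psme2 had the highest mean over the 12 libraries, treated and unstimulated together, at 192 TPM. Psme1 followed at 158 TPM and Psmb3, a non-catalytic beta subunit, at 144 TPM. In unstimulated cells Psme2 was not the highest, at 112 TPM in wild-type and 104 TPM in knockout cells. Psme1 was then at 145 and 130 TPM and Psmb3 at 160 and 129 TPM. The levels that follow are also means over the 12 libraries. In the alpha ring, which gates the core, levels ran from 134 TPM for Psma7 down to 39.5 TPM for Psma5. Among the constitutive catalytic genes Psmb7 stood at 120 TPM and Psmb6 at 55.8 TPM. The ATPases of the 19S base, the motor that unfolds substrates, lay between 34.8 TPM (Psmc5) and 81.7 TPM (Psmc2). The non-ATPase subunits of the base lay between 24.2 TPM for the scaffold Psmd1 and 132 TPM for the ubiquitin receptor Psmd4. The lid, which removes ubiquitin, spread from 20.1 TPM (Psmd3) to 95.2 TPM (Psmd13).

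Most assembly genes were scarce. The 20S assembly chaperones ran from 2.77 TPM (Psmg2) to 13.3 TPM (Psmg3). The 19S assembly chaperones ran from 3.92 TPM (Psmd9) to 36.0 TPM (Psmd10). Psmf1, which encodes the inhibitor PI31, was at 5.93 TPM, and the activator genes Psme3 (PA28γ, nuclear) and Psme4 (PA200) were at 38.8 and 17.4 TPM. The 3 immune catalytic genes did not share a level. Over the 12 libraries Psmb9 and Psmb8 had means of 74.6 and 73.0 TPM, constitutive Psmb5 75.9 TPM and Psmb10 9.0 TPM. Unstimulated wild-type and knockout cells held 56.1 and 44.9 TPM of Psmb8 and 77.1 and 64.0 TPM of Psmb5. With CpG they held 86.9 and 104 TPM of Psmb8 and 85.3 and 77.1 TPM of Psmb5.

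**Figure D1:**
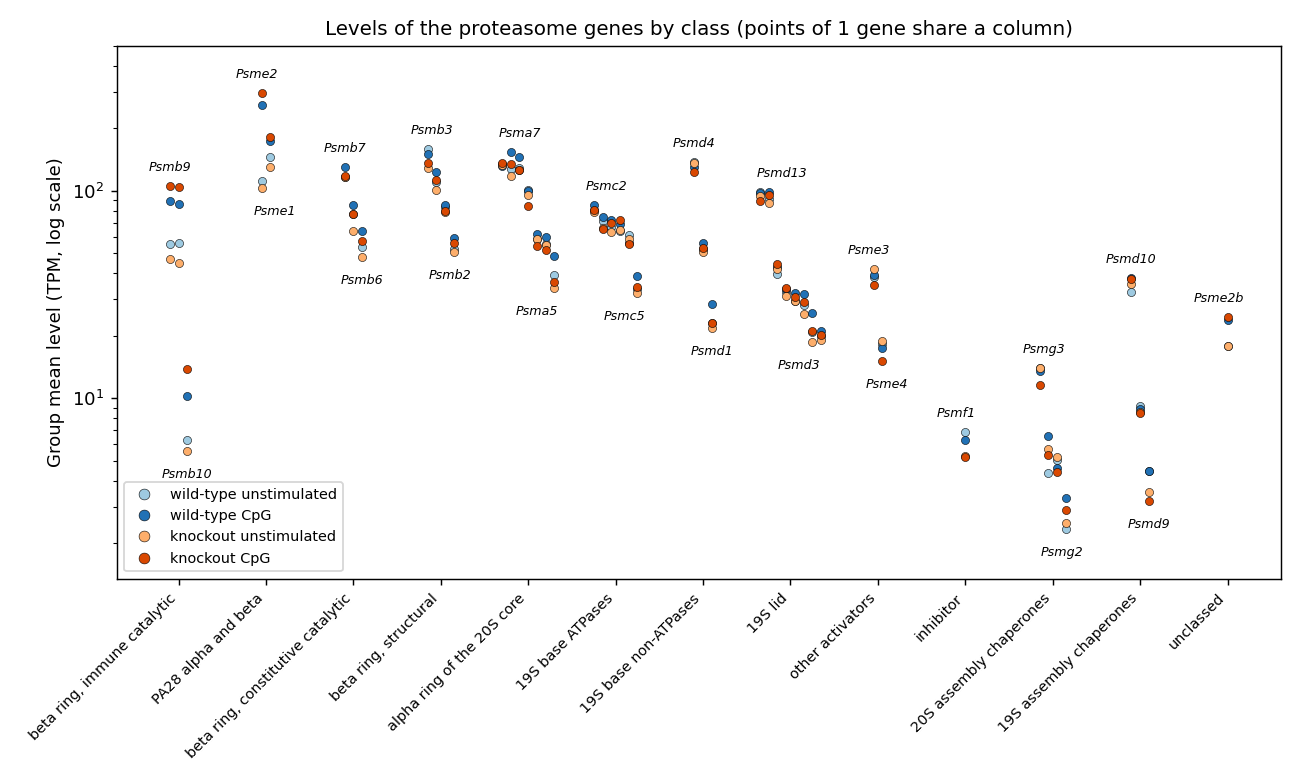
Group mean level in TPM (vertical axis, log scale) of each of the 47 proteasome genes, arranged by class along the horizontal axis, with 1 column of 4 points a gene and colours for the 4 groups. The highest and lowest gene of each class are named. Psme2 tops the plot at 259 and 295 TPM in the CpG-treated groups, and Psmb10 lies far below Psmb8 and Psmb9.

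In the fit of all 12 libraries without a block, the members that rose with CpG were all immune ones. None of the other 42 was called there in either genotype. With the library number within a genotype as a block, 6 members rose in wild-type and 7 in knockout cells, not all of them immune, as given below. In wild-type cells 3 of the 47 members rose and 0 fell, where 6.04% of all genes tested were called, 4.74% rising and 1.3% falling. The 3 were Psme2, Psmb9 and Psmb8. In knockout cells 5 of 47 rose and 0 fell, where 7.57% of all genes tested rose and 4.06% fell, and the 5 were Psme2, Psmb10, Psmb8, Psmb9 and Psme1. Without knockout CpG library 2 there were 8, the added ones being Psmb6, the alpha subunit Psma6 and the lid deubiquitinase Psmd14, the last 2 of these named after their values were seen. The median log2 fold change of the 5 immune members was 0.72 in wild-type and 1.29 in knockout cells, against 0.12 and 0.16 for the other 42 and -0.01 and -0.01 for all genes tested. The median of the 42 was 0.06 in wild-type cells without unstimulated library 3, and in knockout cells 0.09 without unstimulated library 3. Of 13 monocyte and macrophage markers, 2 rose in wild-type (Csf1r and Adgre1) and 4 in knockout cells (these with Ms4a7 and Vcam1). Of 8 dendritic cell markers tested, 0 rose in wild-type and 2 in knockout cells (Bst2 and Zbtb46). The summed level of the 10 listed was 41.9 to 43.3 CPM unstimulated and 62.3 to 68.7 CPM with CpG in wild-type libraries, and 22.7 to 57.5 and 36.2 to 96.6 CPM in knockout libraries. Lcn2 and Cd8a also rose and Siglecf fell in knockout cells. The part of these markers in the counts was not tested. In bulk samples like these, fewer cells of a type and less RNA per cell cannot be told apart.

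Psme2, the β subunit of PA28, moved most. Its levels in libraries 1, 2 and 3 were 54.0, 51.0 and 54.4 CPM in unstimulated wild-type cells and 116, 122 and 139 CPM with CpG. In knockout cells they were 47.0, 48.5 and 42.7 CPM unstimulated and 134, 126 and 152 CPM with CpG. Every CpG-treated library of either genotype was above every unstimulated one. The rise was 2.36-fold in wild-type (log2 1.24, SE 0.11, Benjamini-Hochberg adjusted p = 6.67e-06 in edgeR) and 2.98-fold in knockout cells (log2 1.57, SE 0.11, adjusted p = 4.6e-07). Psme2 shares reads with its near-identical copy Psme2b, so the split between them is uncertain. Psme2b, named after its values were seen, ran from 7.27 to 20.9 CPM with overlapping groups. With both genes counted as 1, an alternative added after the data were seen, the rise was log2 1.13 in wild-type and 1.43 in knockout cells, and both stayed called.

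Psme1, the α subunit of PA28, is a neighbour of Psme2 on chromosome 14. Unstimulated libraries 1, 2 and 3 held 83.3, 73.9 and 84.5 CPM in wild-type and 66.1, 76.0 and 60.3 CPM in knockout cells. With CpG they held 91.8, 85.8 and 117 CPM in wild-type and 94.6, 93.6 and 107 CPM in knockout cells. The groups did not overlap within a genotype, though the lowest treated wild-type library was close to the highest unstimulated one. Psme1 rose 1.46-fold in knockout cells (log2 0.54, SE 0.13, edgeR quasi-likelihood adjusted p = 0.0145), and its wild-type log2 fold change of 0.28 (SE 0.13) was not called (adjusted p = 0.298). The knockout call was lost without unstimulated knockout library 1 (edgeR adjusted p = 0.056) or 3 (adjusted p = 0.0828), and without both knockout libraries numbered 1 (adjusted p = 0.0658) or 3 (adjusted p = 0.149). The gene model of Psme1 overlaps that of Emc9 in RefSeq, and how counting treated strand is unstated, so their reads may not be told apart.

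Psmb8, the immune β5i subunit, stood at 44.6, 35.9 and 45.2 CPM in unstimulated wild-type libraries 1, 2 and 3 and at 62.2, 55.8 and 78.8 CPM with CpG. In the knockout it stood at 35.6, 30.3 and 27.7 CPM unstimulated and at 72.3, 68.1 and 88.5 CPM with CpG. Treated and unstimulated libraries did not overlap in either genotype, and library 3 was the highest of each treated group. The rise was 1.57-fold in wild-type (log2 0.65, SE 0.15, edgeR quasi-likelihood adjusted p = 0.0233) and 2.45-fold in knockout cells (log2 1.29, SE 0.16, adjusted p = 8.63e-05).

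Psmb9, the immune β1i subunit, stood at 28.8, 21.9 and 27.0 CPM in unstimulated wild-type libraries and at 38.7, 35.0 and 57.4 CPM with CpG. Knockout libraries held 23.1, 20.4 and 18.3 CPM unstimulated and 44.8, 46.5 and 50.6 CPM with CpG. Again the groups did not overlap within a genotype, and wild-type CpG library 3 lay well above the other two. The rise was 1.68-fold in wild-type (log2 0.75, SE 0.17, edgeR quasi-likelihood adjusted p = 0.0181) and 2.3-fold in knockout cells (log2 1.202, SE 0.18, adjusted p = 0.000395).

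The wild-type calls of Psmb8 and Psmb9 rested on few libraries. Without wild-type CpG library 3 their log2 fold changes were 0.48 and 0.50 (edgeR adjusted p = 0.102 and 0.0639), and without unstimulated wild-type library 2 they were 0.52 and 0.62 (adjusted p = 0.119 and 0.0946), so that Psme2 was then the 1 member called. Psmb8 alone also lost its call without unstimulated wild-type library 1 (adjusted p = 0.055) or wild-type CpG library 1 (adjusted p = 0.0515). The knockout calls of Psme2, Psmb8, Psmb9 and Psmb10 held in every fit run.

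Psmb10, the immune β2i subunit, was scarce and spread widely. Unstimulated libraries 1, 2 and 3 held 4.61, 5.36 and 4.81 CPM in wild-type and 3.31, 3.78 and 4.94 CPM in knockout cells. With CpG they held 6.16, 7.72 and 10.6 CPM in wild-type and 6.63, 14.4 and 10.3 CPM in knockout cells. All treated libraries were above all unstimulated ones, but the treated knockout values differed more than 2-fold among themselves. The log2 fold change was 0.72 in wild-type (SE 0.28, edgeR quasi-likelihood adjusted p = 0.194, not called) and 1.38 in knockout cells (SE 0.29, adjusted p = 0.00547).

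Same-numbered wild-type libraries deviated together, and with the library number within a genotype as a block the wild-type comparison called 6 members in edgeR. These were Psme2, Psmb9, Psmb8, Psmb10 (log2 0.71, adjusted p = 0.0371), the alpha subunit Psma5 (log2 0.32, adjusted p = 0.0433) and the base scaffold Psmd1 (log2 0.30, adjusted p = 0.0216). Psma5 and Psmd1 are named here after their values were seen. All genes called in wild-type cells then numbered 1824, against 652 without the block, 425 without unstimulated library 1 and 432 without CpG library 2.

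**Figure D2:**
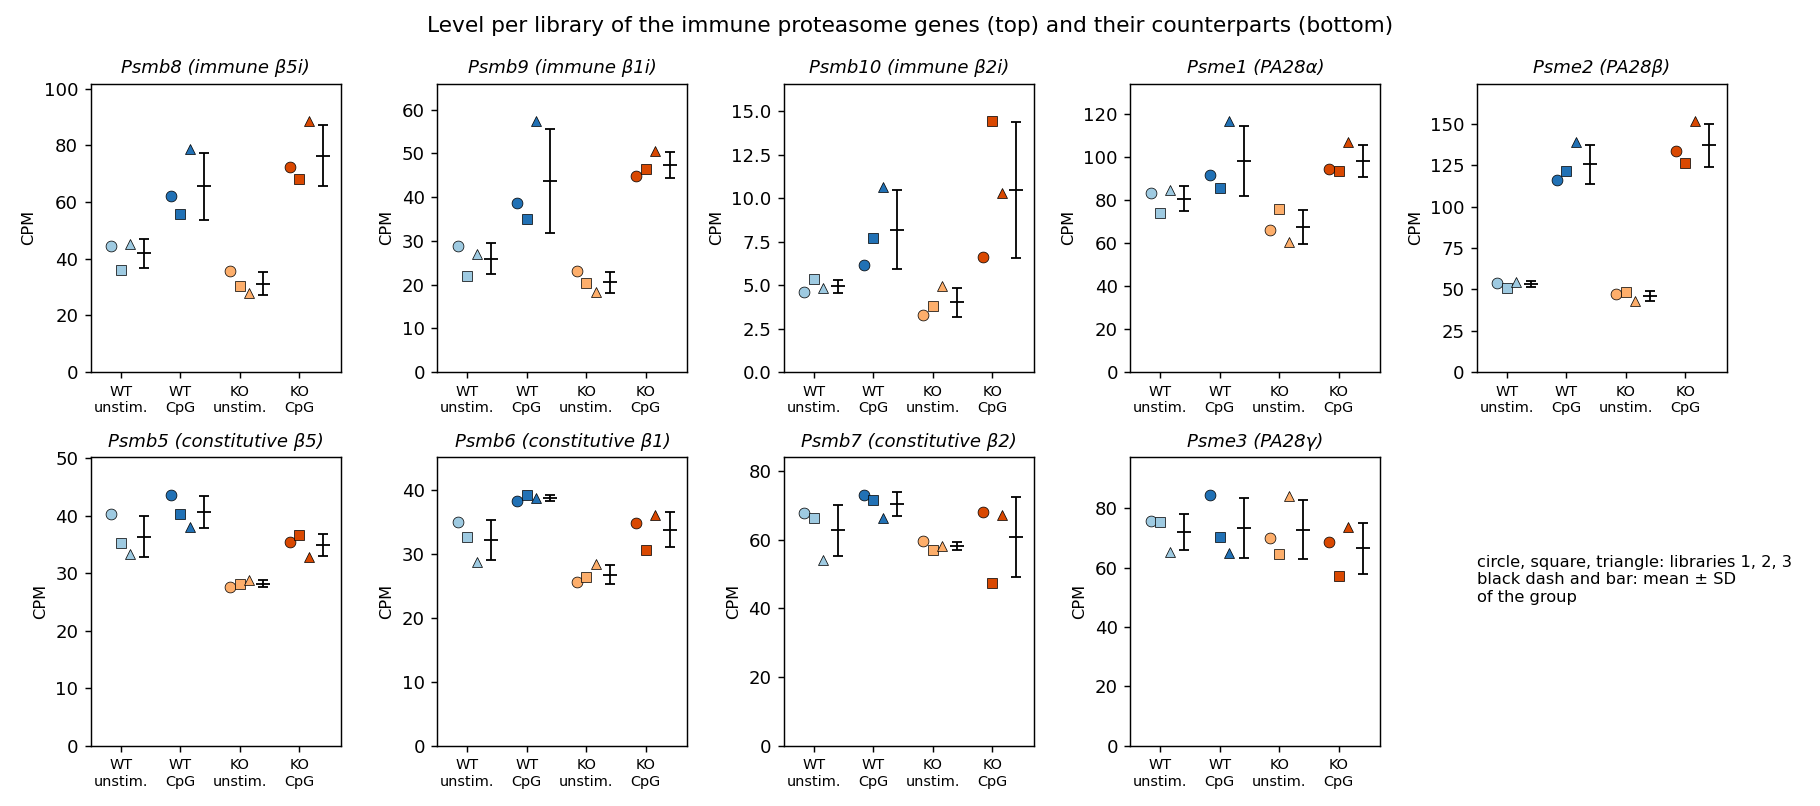
Level in CPM (vertical axis, from 0) of each of 9 genes in every library of the 4 groups (horizontal axis), with symbols for libraries 1, 2 and 3 and a black dash and bar for the group mean ± SD. The upper panels show the 5 immune members, in which treated libraries lie above unstimulated ones of the same genotype. The lower panels show the 4 counterparts, none of which was called in the fit of all 12 libraries without a block.

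The start sites of these genes were searched because the 5 moved in 1 direction. RefSeq promoters (250 bases before to 50 bases after the start, GRCm38.p6) were found for 40 of the 47 members. These coordinates are of an older build than GRCm39, the build named in the submitters' processing notes. Psme1 and Psmb8 are printed because each holds a match to an interferon element, and Psme2 because it moved most and holds neither. Psmb9 and Psmb10 also hold neither and are not printed. Psme2 has another start in RefSeq, whose window is not printed and holds neither. Capitals in Psme1 mark a match to a pair of GAAA with any 2 bases between, the core of an interferon-stimulated response element. Capitals in Psmb8 mark a match to TTC and GAA with any 3 bases between, the interferon-gamma-activated site. Both strands were searched.
Psme1, chr14:55578244-55578543, + strand: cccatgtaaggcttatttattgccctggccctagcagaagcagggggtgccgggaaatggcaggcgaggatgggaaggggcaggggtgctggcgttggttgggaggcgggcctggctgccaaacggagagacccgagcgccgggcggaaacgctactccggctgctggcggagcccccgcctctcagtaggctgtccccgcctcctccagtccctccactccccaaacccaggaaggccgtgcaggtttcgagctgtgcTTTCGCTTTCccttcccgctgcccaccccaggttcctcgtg
Psmb8, chr17:34197945-34198244, + strand: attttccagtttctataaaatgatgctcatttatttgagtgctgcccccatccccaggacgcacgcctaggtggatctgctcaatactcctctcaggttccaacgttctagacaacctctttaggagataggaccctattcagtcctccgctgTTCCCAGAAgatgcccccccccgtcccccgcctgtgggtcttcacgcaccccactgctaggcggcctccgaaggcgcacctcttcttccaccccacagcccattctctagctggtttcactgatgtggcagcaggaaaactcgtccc
Psme2, chr14:55591052-55591351, - strand: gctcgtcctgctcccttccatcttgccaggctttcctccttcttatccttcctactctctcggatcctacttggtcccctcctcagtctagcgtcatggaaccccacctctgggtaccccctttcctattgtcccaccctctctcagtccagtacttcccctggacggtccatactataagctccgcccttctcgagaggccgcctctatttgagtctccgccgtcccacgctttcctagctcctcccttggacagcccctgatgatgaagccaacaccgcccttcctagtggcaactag

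Counting the start as position 1, the Psme1 match covers positions 10 to 19 and lies on the reverse strand, and the Psmb8 match covers positions -97 to -89. The first element was found in 3.44% of 32851 promoters of this length and in 4 of the 35 other member genes with a promoter (Psmb3, Psmd4, Psmd9 and Psmg4). The second was found in 8.3% of promoters and in 2 of those 35 genes (Psmd2 and Psmg1). The NF-kB-like pattern of GGG and CC with any 5 bases between was too common to separate genes, being in 50.8% of all promoters, in those of Psme1, Psme2 and Psmb9, and in 20 of the 35 others. A match is a description of letters, and its absence from a window says only that these letters are not there.

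Of the constitutive counterparts of the immune subunits, 0 of 3 passed the test in either genotype in the fit of all 12 libraries without a block. With the library number within a genotype as a block, Psmb5 and Psmb6 were called in knockout cells (edgeR adjusted p = 0.0196 and 0.021). The knockout libraries did not meet the rule for pairing given below. Psmb5, the β5 subunit that Psmb8 replaces, held 40.3, 35.2 and 33.4 CPM in unstimulated and 43.6, 40.4 and 38.1 CPM in CpG-treated wild-type libraries 1, 2 and 3. In knockout libraries it held 27.6, 28.2 and 28.8 CPM unstimulated and 35.4, 36.6 and 32.8 CPM with CpG. The wild-type groups overlapped and the knockout groups did not. Its log2 fold change was 0.16 (SE 0.10) in wild-type and 0.31 (SE 0.10, edgeR adjusted p = 0.0746) in knockout cells.

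Psmb6, the β1 subunit that Psmb9 replaces, held 34.9, 32.7 and 28.8 CPM in unstimulated and 38.3, 39.2 and 38.7 CPM in treated wild-type libraries. In knockout libraries it held 25.5, 26.4 and 28.3 CPM and then 34.7, 30.6 and 36.0 CPM. Treated libraries lay above unstimulated ones in both genotypes, with log2 fold changes of 0.27 (SE 0.10, edgeR adjusted p = 0.192) and 0.34 (SE 0.11, adjusted p = 0.0577). The latter was called without knockout CpG library 2 (edgeR adjusted p = 0.0427). Psmb7, the β2 subunit that Psmb10 replaces, overlapped between groups in both genotypes, at 54.2 to 73.0 CPM in the 6 wild-type and 47.5 to 68.2 CPM in the 6 knockout libraries. Its log2 fold change was 0.16 (SE 0.14) in wild-type and 0.06 (SE 0.14) in knockout cells. The knockout value was -0.02 when libraries were scaled by size alone, with the median of all genes tested then at -0.09.

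Relative to their counterparts the immune genes had higher means with CpG in both genotypes, and these ratios are given without a test. The share of Psmb8, Psmb9 and Psmb10 in the summed TPM of the 6 catalytic genes was 32.0, 28.8 and 36.2% in unstimulated wild-type libraries 1, 2 and 3 and 37.1, 35.8 and 47.0% with CpG. In the knockout it was 32.6, 29.4 and 27.7% unstimulated and 43.6, 48.5 and 48.4% with CpG. The wild-type groups overlapped, since unstimulated library 3 was above treated library 2, while the knockout groups lay clearly apart. Group means ± SD (n = 3) went from 32.3 ± 3.72% to 40.0 ± 6.08% in wild-type and from 29.9 ± 2.5% to 46.9 ± 2.79% in knockout cells.

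The means of all 3 catalytic pairs were higher with CpG, by different amounts. The mean Psmb8/Psmb5 ratio of TPM went from 0.73 ± 0.10 to 1.03 ± 0.24 in wild-type and from 0.71 ± 0.11 to 1.37 ± 0.32 in knockout cells (SD, n = 3). Psmb9/Psmb6 went from 1.04 ± 0.20 to 1.42 ± 0.38 and from 0.99 ± 0.17 to 1.84 ± 0.24. Psmb10/Psmb7 remained far below 1, going from 0.054 ± 0.0064 to 0.08 ± 0.026 and from 0.047 ± 0.01 to 0.12 ± 0.062. So β2i transcripts were a small fraction of β2 transcripts in all 4 groups, while mean β1i levels were near or above those of β1. Those of β5i were below β5 in unstimulated cells and near or above it with CpG.

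**Figure D3:**
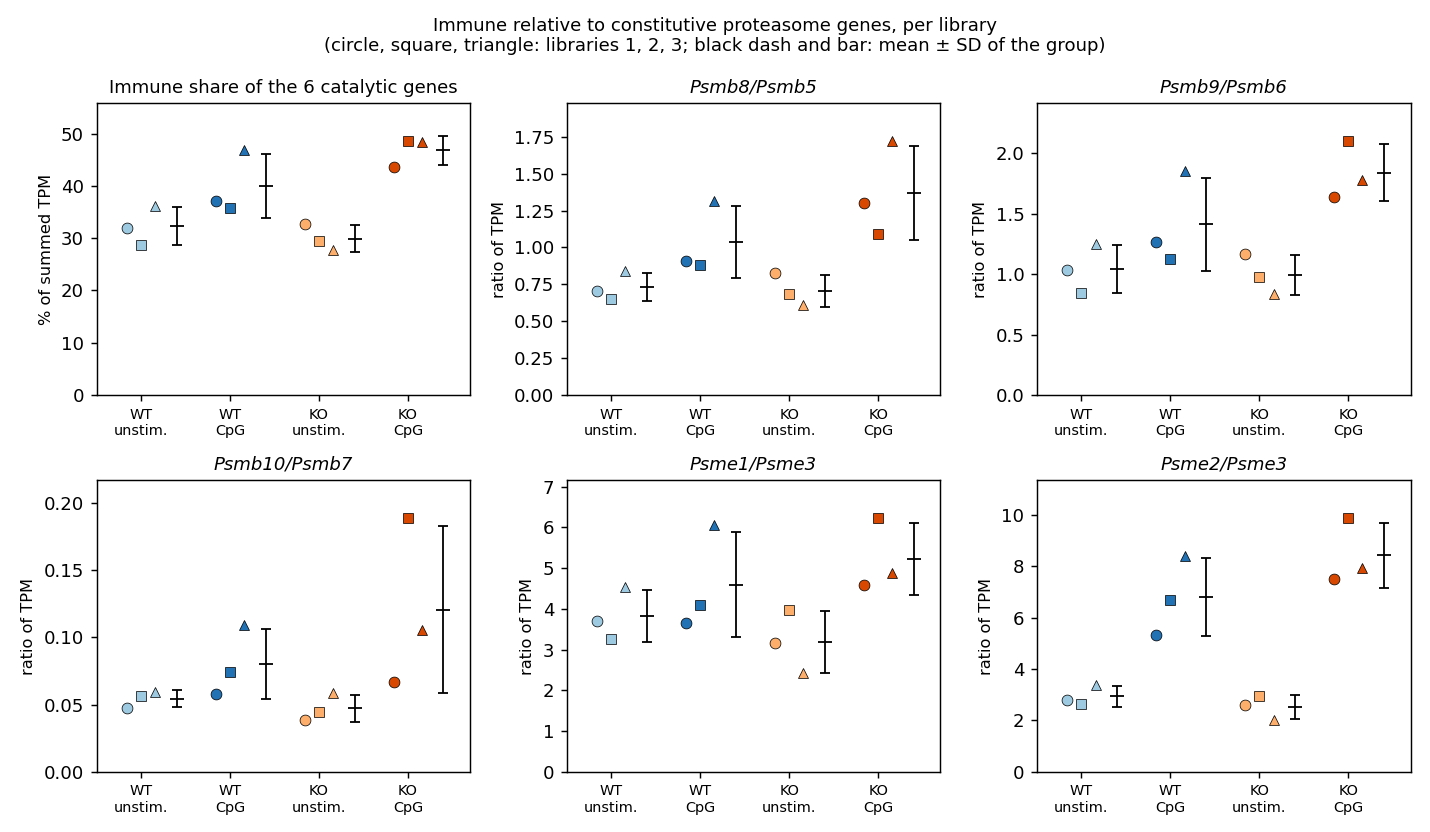
Share of the 3 immune genes in the summed TPM of the 6 catalytic genes, in percent (first panel), and ratios of TPM for the 5 pairs (other panels), on axes from 0, for every library of the 4 groups, with symbols for libraries 1, 2 and 3 and the group mean ± SD. The knockout shares lie at 27.7 to 32.6% unstimulated and 43.6 to 48.5% with CpG, and wild-type CpG library 3 is above the other two of its group in every panel.

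The rest of the core, cap and assembly genes gave small estimates that leaned upward with CpG. They were not called in the fit of all 12 libraries without a block. In wild-type cells 31 of the 42 had a positive log2 fold change, from -0.13 to 0.63, and 9 of 42 had all treated libraries above all unstimulated ones, where 14.5% of all genes tested did, and 1 of 42 had all below, where 11.2% did. In knockout cells 34 of 42 were positive, from -0.21 to 0.52, and 13 of 42 did not overlap upward, where 12.7% of all genes tested did. The 0.52 was that of Psme2b, the near-identical copy of Psme2, and without it the highest was 0.34. Of all genes tested, 48.8% had a positive log2 fold change in each genotype. Scaling by library size alone lowered the knockout median of the 42 from 0.16 to 0.08, and that of all genes tested from -0.01 to -0.09. Summed over the 42, levels were 2408 ± 190 TPM unstimulated and 2562 ± 146 TPM with CpG in wild-type cells, and 2288 ± 85.0 and 2358 ± 145 TPM in knockout cells (SD, n = 3), so in each genotype the means differed by less than the SD of the unstimulated libraries. The 5 immune genes summed to 375 ± 23.8 and 621 ± 58.4 TPM in wild-type cells and to 331 ± 8.73 and 702 ± 101 TPM in knockout cells.

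By class, the alpha ring genes had a median log2 fold change of 0.13 in wild-type and 0.08 in knockout cells, and the structural beta genes had 0.11 and 0.14. The ATPases of the base had medians of 0.10 and 0.16, and 6 of 6 were positive in knockout cells. The lid genes had medians of 0.12 and 0.21, with 8 of 8 positive in knockout cells. The 20S assembly chaperones had medians of 0.26 and -0.11 with a median SE of 0.35, the widest error of any class.

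The activators outside PA28αβ and the inhibitor were not called. Psme3, which forms a nuclear PA28 ring without Psme1 and Psme2, held 65.2 to 75.6 CPM in unstimulated and 65.0 to 84.5 CPM in treated wild-type libraries, and 64.6 to 84.0 and 57.1 to 73.7 CPM in knockout libraries. Its log2 fold changes were 0.02 (SE 0.14) and -0.13 (SE 0.14). Psme4 held 76.9 to 92.5 CPM in the wild-type and 63.2 to 89.8 CPM in the knockout, with log2 fold changes of -0.08 (SE 0.12) and -0.18 (SE 0.12). Psmf1 held 13.3 to 17.8 CPM in the wild-type and 10.8 to 13.9 CPM in the knockout, with log2 fold changes of -0.09 (SE 0.15) and 0.11 (SE 0.15). The Psme2/Psme3 ratio of TPM went from 2.93 ± 0.41 to 6.81 ± 1.52 in wild-type and from 2.52 ± 0.48 to 8.43 ± 1.27 in knockout cells.

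**Figure D4:**
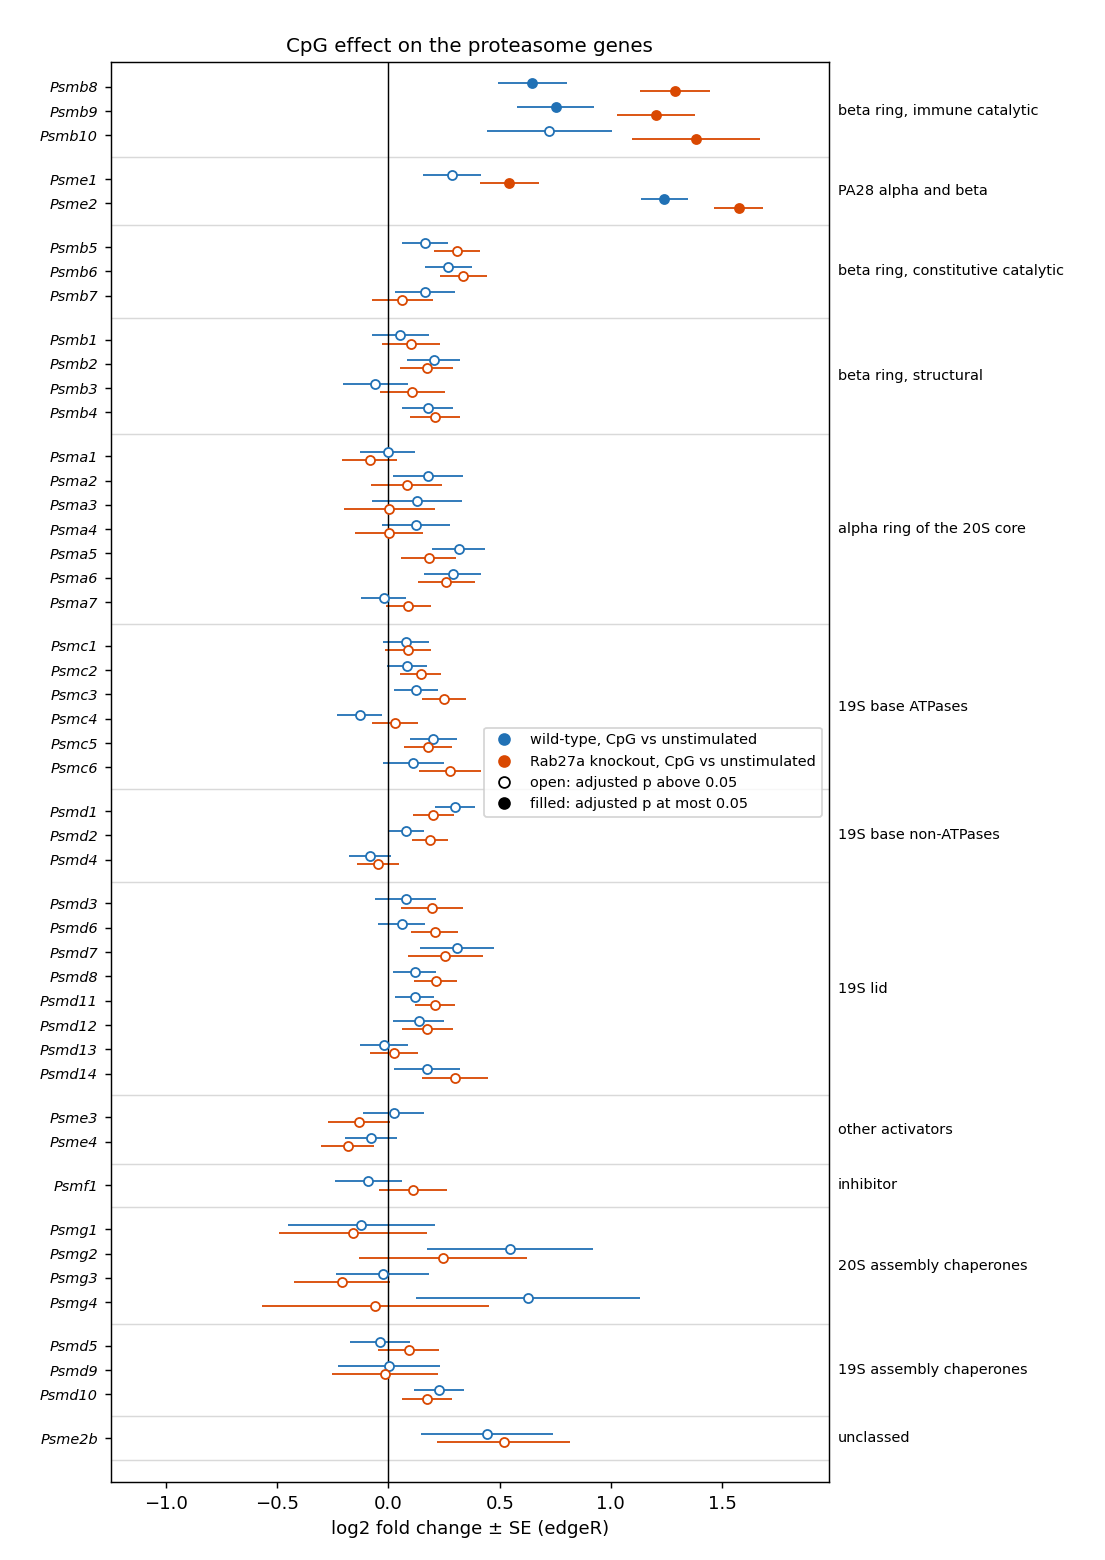
Log2 fold change with CpG ± SE (horizontal axis) of each of the 47 proteasome genes (vertical axis, by class), in wild-type (blue) and knockout cells (orange), with filled points for an adjusted p of at most 0.05. The filled points are 3 wild-type and 5 knockout ones, all among the 5 immune members, which run up to 1.57, while the other 42 lie between -0.21 and 0.63.

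Without stimulation, knockout cells gave lower estimates for most proteasome genes, and none was called. The comparison called 0 of 47 members, where 4.75% of all genes tested were called (2.11% higher and 2.64% lower in the knockout). DESeq2 also called 0 members. An unadjusted edgeR p under 0.05 was found for 7 of 47 members and for 1901 of the 10802 genes tested. The log2 difference was negative for 43 of 47, with a median of -0.18 against -0.01 for all genes tested. All 3 knockout libraries were below all 3 wild-type libraries for 18 of 47, where 13% of all genes tested did so. The median was -0.18 with scaling by library size alone and -0.16 with relative log expression factors. Without both knockout libraries numbered 1 it was -0.14, and without both numbered 3 it was -0.17.

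The lowest estimates belonged to Psmf1 at log2 -0.50 (SE 0.15, edgeR adjusted p = 0.0918), the assembly chaperone Psmd9 at -0.45 (SE 0.24) and Psmb8 at -0.43 (SE 0.16, adjusted p = 0.166). Psmb5 had the lowest p of the catalytic genes, at log2 -0.37 (SE 0.10, edgeR adjusted p = 0.0661), and its 27.6 to 28.8 CPM in the knockout lay under the 33.4 to 40.3 CPM of the wild-type. The 5 immune members were all lower, by log2 -0.21 for Psme2 to -0.43 for Psmb8, and the others had a median of -0.17 (-0.10 without unstimulated wild-type library 1), and both sets were below the -0.01 of all genes. The 4 positive estimates, named after their values were seen, were 0.28 for Psmg4, 0.03 for Psmd10, 0.03 for Psmg2 and 0.01 for Psme3, of which Psme3 was -0.09 without both knockout libraries numbered 3. Erythroid and B cell markers also differed among the knockout libraries, as given above. The erythroid marker Hbb-bt was called lower in the knockout, and no other listed marker was called. The part of these markers in these values was not tested.

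In CpG-treated cells the immune estimates were positive and most others negative, and again none was called. The comparison of genotypes in treated cells called 0 of 47 members, where 3.92% of all genes tested were called (1.7% higher and 2.21% lower in the knockout). An unadjusted edgeR p under 0.05 was found for 2 of 47 members and for 1956 of the 10802 genes tested. The 5 immune estimates were 0.36 for Psmb10, 0.22 for Psmb8, 0.13 for Psme2, 0.12 for Psmb9 and 0.00 for Psme1, with SEs of 0.10 to 0.27. With scaling by library size alone Psme1 was -0.05 and the median of all genes tested was -0.07. Of the other 42, 40 were negative, with a median of -0.18. That median was -0.04 without knockout CpG library 2, when 15 of all 47 members were positive against 7 with it, and 12 were positive with relative log expression factors or in DESeq2. The groups did not overlap downward for 9 of 47, where 10% of all genes tested did so, and upward for 1 of 47, where 10.3% did. Psma5, chosen after its values were seen, was lowest in adjusted p at log2 -0.46 (SE 0.12, edgeR adjusted p = 0.0533), with 36.6, 36.2 and 36.0 CPM in wild-type and 27.5, 22.5 and 29.4 CPM in knockout libraries. DESeq2 called it (adjusted p = 0.0364), as did edgeR without knockout CpG library 3 (adjusted p = 0.0375). Of the cell type markers, Hbb-bt was called lower and Csf1r higher in treated knockout cells, and their part in these values was not tested.

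Whether CpG acted more strongly in 1 genotype was asked by the interaction of genotype and CpG, for which edgeR called 0 of the 10802 genes (0%). At an unadjusted p under 0.05 there were 364 genes and 2 members, DESeq2 called 2 genes and edgeR with the library number within a genotype as a block called 13, with 0 members called in any of these. The 5 immune estimates were all positive: 0.66 (SE 0.40) for Psmb10, 0.64 (SE 0.22) for Psmb8, 0.45 (SE 0.24) for Psmb9, 0.33 (SE 0.15) for Psme2 and 0.26 (SE 0.18) for Psme1. Their adjusted p was 1 in edgeR, and 0.176 for Psmb8 with that block, so a difference in CpG response between genotypes is not shown for any member. The other 42 had a median of 0.03, with 23 positive, against 0.01 for all genes tested. With scaling by library size alone these medians were -0.03 and -0.05. Without knockout CpG library 2 they were 0.11 and 0.02. The interaction is made from the same 4 groups and is no further evidence beside the comparisons above.

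**Figure D5:**
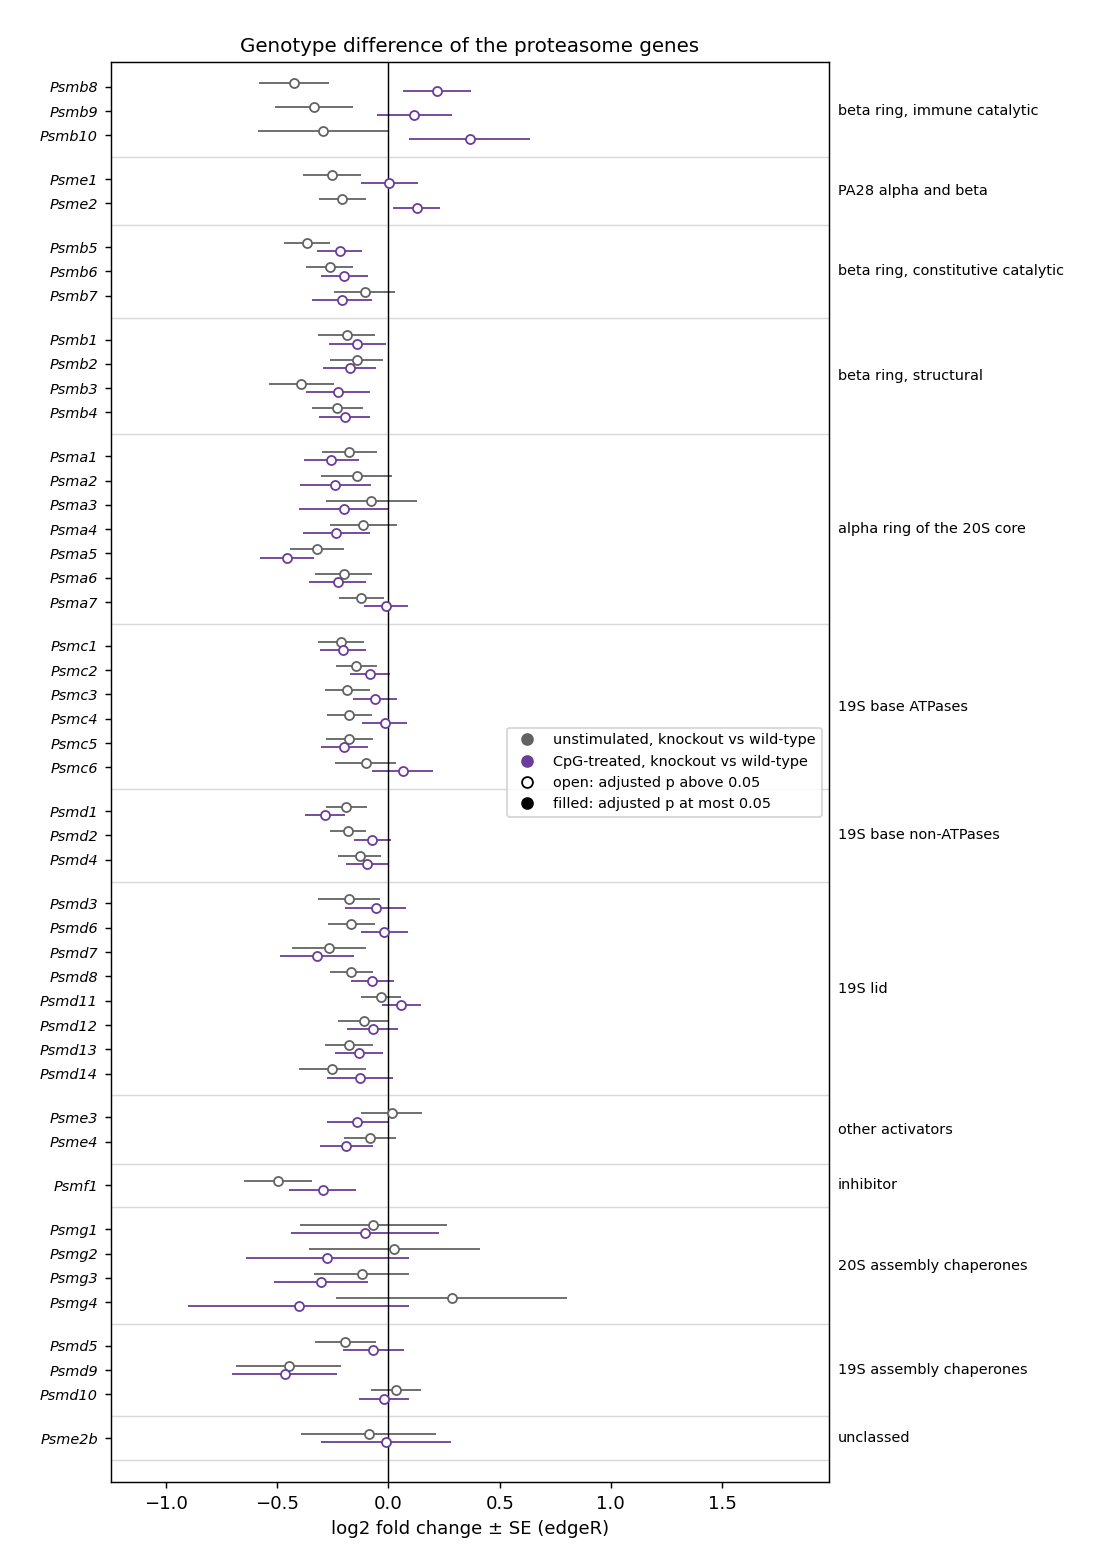
Log2 difference between knockout and wild-type ± SE (horizontal axis) of each of the 47 proteasome genes (vertical axis, by class), in unstimulated (grey) and CpG-treated cells (purple), with open points because no adjusted p was at most 0.05. In grey 43 of 47 points lie below 0, and in purple the 5 immune members lie at 0.00 to 0.36 while 40 of the other 42 lie below 0.

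Other genes of the pathway were followed in 4 lists. Of 10 known or proposed regulators of proteasome genes, 6 rose and 0 fell with CpG in wild-type and 7 rose and 0 fell in knockout cells, where 4.74% and 7.57% of all genes tested rose. Nlrc5, the transactivator of class I genes, went from 8.87, 8.15 and 10.7 CPM to 21.0, 23.7 and 24.1 CPM in wild-type libraries 1, 2 and 3 (log2 1.31, SE 0.20, edgeR adjusted p = 0.00111), and rose by log2 1.53 (SE 0.20) in the knockout. Irf1, an interferon-induced activator of immunoproteasome genes, went from 98.4, 104 and 77.3 CPM to 203, 269 and 345 CPM in knockout libraries (log2 1.55, SE 0.19, edgeR adjusted p = 9.84e-05). Stat2 rose by log2 0.98 (SE 0.24) and 1.49 (SE 0.25), its wild-type call being lost without any of 4 wild-type libraries (unstimulated 1 or 2, CpG 2 or 3). Nfe2l2, an activator of constitutive subunits under oxidative stress, rose by log2 0.98 (SE 0.12) in wild-type cells. Constitutive subunits were not called in wild-type cells in the fit without a block, while Psma5 and Psmd1 were called with it. Any link between Nfe2l2 and these genes was not tested.

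Of 9 genes that supply and load class I peptides, 4 rose in wild-type and 6 in knockout cells, with 0 falling in either, beside the same shares of all genes tested. Tap1, which carries proteasome products into the endoplasmic reticulum and lies beside Psmb9, went from 94.0, 78.9 and 116 CPM to 183, 180 and 255 CPM in wild-type libraries (log2 1.10, SE 0.20, edgeR adjusted p = 0.00361). In the knockout it went from 105, 87.8 and 70.1 CPM to 248, 353 and 266 CPM (log2 1.72, SE 0.20, edgeR adjusted p = 5.93e-05). Tapbp, the tapasin that bridges Tap1 to class I, rose by log2 0.79 (SE 0.18) and 1.30 (SE 0.18), Tapbpl by 0.78 (SE 0.12) in wild-type and B2m, the class I light chain, by 1.24 (SE 0.14) in knockout cells. The wild-type call of Tapbp was lost without unstimulated library 1 or 2 or CpG library 3 (edgeR adjusted p = 0.0665, 0.0857 and 0.0678).

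Of 18 partner genes of the proteasome outside the naming rule, 0 rose and 1 fell in each genotype, which is near the share of all genes tested that rose (4.74% in wild-type and 7.57% in knockout cells) or fell (1.3% and 4.06%). The genes that fell were Uchl5, a deubiquitinase of the cap, in wild-type cells (log2 -0.48, SE 0.11, edgeR adjusted p = 0.0177) and Zfand2a, a stress-induced proteasome-binding protein, in knockout cells (log2 -1.04, SE 0.24, adjusted p = 0.0108). The call of Uchl5 was lost without wild-type CpG library 1 or 3 (edgeR adjusted p = 0.0809 and 0.0581), and that of Zfand2a without both knockout libraries numbered 1 (adjusted p = 0.0838). Of 12 genes for ubiquitin, its activation and the VCP segregase, 0 were called with CpG in either genotype, where 6.04% and 11.6% of all genes tested were called.

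Sem1, a small lid subunit that the symbol rule does not reach and that is named here after its values were seen, was the 1 partner gene called between genotypes. Unstimulated libraries 1, 2 and 3 held 208, 186 and 146 CPM in wild-type and 109, 100 and 94.8 CPM in knockout cells, and CpG-treated ones held 209, 196 and 220 against 123, 55.6 and 107 CPM. All knockout libraries were below all wild-type libraries. The log2 difference was -0.83 (SE 0.22, edgeR adjusted p = 0.0512) unstimulated and -1.13 (SE 0.22, adjusted p = 0.00966) with CpG. The unstimulated difference was called in 6 alternatives, with adjusted p from 0.00209 (edgeR without knockout CpG library 2) to 0.0404 (edgeR with the number as a factor), DESeq2 giving 0.00903. Of the regulators, Nfya was higher in unstimulated knockout cells (log2 0.45, SE 0.12, edgeR adjusted p = 0.046), a call lost in fits without any 1 of 4 libraries compared. The call was also lost with no filter (edgeR adjusted p = 0.0543) and with the number as a factor (adjusted p = 0.058).

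Some counts combine transcripts that RSEM had to divide. Of the 47 members, 27 had 1 transcript in the files and 20 had more. For Psmb9, 70.5% of counts were assigned to NM_013585 and 29.4% to the predicted XM_006523730, and for Psme2 84.5% to NM_011190 and the rest to NM_001029855. Gene sums were used throughout. The summed counts were not adjusted for transcript length, so a shift between transcripts of unlike length can change them. The TPM allow for the length of each transcript. Such shifts were not tested. The models of 5 members overlapped a counted gene in RefSeq: Psmd10 (Atg4a), Psme1 (Emc9), Psme2b (9930111J21Rik1), Psme4 (Erlec1) and Psmf1 (Tmem74b).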

How the data were processed

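RNA-seq of 12 neutrophil libraries (4 groups of 3) was used. The authors aligned reads with Bowtie2 and estimated expression with RSEM 1.2.28 on GRCm39, per the submitters' processing notes. The authors deposited an expected count and a TPM for each transcript, per the file headers, and 80.4% of nonzero expected counts were not whole. The use of strand was not stated. Counts of 54716 transcripts were summed to 15986 genes and rounded, and 15883 genes got a symbol (the other 103 held at most 0.101% of counts). edgeR 4.0.16 (R 4.3.3) fitted 1 model to the 4 groups with TMM factors (0.9 to 1.093), filterByExpr (10802 genes kept), 8 residual degrees of freedom and Benjamini-Hochberg adjustment at 0.05. The contrasts tested were CpG in each genotype, genotype in each treatment, and their interaction. The deposited TPM, summed per gene, were used for levels between genes and for ratios.

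Tested on simulated data for CpG in wild-type cells (10802 genes, 200 changed), the fit recovered 21.2% of 1.5-fold, 80.6% of 2-fold and 98.5% of 4-fold changes, with 6 false calls. In wild-type cells the deviations of libraries sharing a number had correlations of 0.28, 0.41 and 0.44, so they were taken as paired by the rule that every correlation exceed 0.1, from the data and not from the labels. Alternatives were other scaling, filters, blocks, fits of only the libraries compared, DESeq2 1.42.0 and leaving out each library. Named genes were the 5 immune members and their counterparts, Psme4, Psmf1, class extremes and called genes with the largest changes. The members and lists were chosen with earlier results of these data known. Adjusted p-values are from edgeR unless DESeq2 is named. Promoters are from RefSeq (GRCm38.p6).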

Additional observations from a re-analysis of the deposited data

How the results depend on the processing

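The same members were called with CpG (Psme2, Psmb9 and Psmb8 in wild-type cells, these with Psmb10 and Psme1 in knockout cells) under scaling by library size or relative log expression, no filter, a 1 CPM filter, the number as a factor, only the libraries compared, and DESeq2. With the library number within a genotype as a replicate block, wild-type calls were 1824 genes and 6 members, and knockout calls 2591 genes and 7 members (Psmb5, adjusted p = 0.0196, and Psmb6, 0.021, were added). Knockout libraries sharing a number had correlations of 0.62, 0.09 and 0.68, so the rule that every correlation exceed 0.1 was not met there. Their erythroid marker sums, unstimulated and with CpG, were close within a number. These sums were 337 and 400 CPM for number 1, 1446 and 1312 CPM for number 2, and 4705 and 4804 CPM for number 3. The block called 13 interaction genes and DESeq2 called 2. Leaving out 1 library gave 425 to 758 genes and 1 to 3 members for CpG in wild-type cells, 818 to 1347 genes and 4 to 8 members in knockout cells, 278 to 604 genes between genotypes unstimulated, and 234 to 699 genes and 0 to 1 members between treated genotypes. Without both knockout libraries numbered 1, 341 genes differed between genotypes unstimulated. In treated cells 824 genes and 1 member (Psma5) did so without both numbered 3, 716 and 1 with DESeq2, and 253 genes with only the libraries compared. In CPM the immune share was 33.0% in unstimulated and 50.8% in CpG-treated knockout cells.

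Of the named genes, 5 estimates changed sign under some alternatives, those without both knockout libraries of a number being chosen after the data were seen. Psme3 with CpG in wild-type cells was -0.0632 without unstimulated library 3 and ranged from -0.0888 to 0.0897 over single libraries left out. Psmb7 with CpG in knockout cells was -0.0158 by library size, -0.0247 and -0.027 without both libraries numbered 1 or 3, and -0.0272 to 0.2113 without single libraries. Psme3 between genotypes unstimulated was -0.0944 without both knockout libraries numbered 3 and -0.0685 to 0.0931 without single libraries. Psme1 between genotypes with CpG was -0.0543 by library size, -4e-04 without a filter, -0.0019 with only the libraries compared, -0.0433 without both knockout libraries numbered 3 and -0.0518 to 0.1674 without single libraries. The Psmb7 interaction ranged from -0.1903 to 0.0623 without single libraries. With scaling by library size the median of all genes tested was -0.09 for CpG in knockout cells and -0.07 between genotypes with CpG. The cause was not tested for any of these changes of sign. With 3 libraries a group, the other 42 members had a median SE of 0.12 for CpG, and log2 changes of about that size were not detectable.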
